A study of Mus musculus with 8 samples.

Results

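Inhibitory immune checkpoints are cell surface receptors and ligands that restrain immune cells, and 10 such mouse genes were followed here in sorted microglia. They are *Cd274*, *Cd47*, *Sirpa*, *Lair1*, *Pilra*, *Lilrb4a*, *Cd200r1*, *Havcr2*, *Vsir* and *Lag3*, and their rows were found among the 55573 listed genes by Ensembl identifier. All 10 were among the 20153 genes that passed the filter on low counts. RNA came from microglia that were sorted from brains at postnatal day 60. The mutants were 4 mice of the genotype *Smad2/3* fl/fl;*Cx3cr1*Cre, in which both genes are floxed for deletion by Cre, and the controls were 4 littermates labelled wild-type, with 1 library per mouse. For the study at large the Methods describe Cre-bearing controls with a floxed allele, so whether these controls carried Cre is not clear. Cre was expressed from the *Cx3cr1* locus, which is active in microglia and in other brain macrophages. The Methods describe a reporter gate for cells positive for tdTomato, a marker of past Cre activity, and gating on CD45 and CD11b. Border-associated macrophages (BAMs) can pass both, whereas most T cells should be removed.

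Microglia are the resident macrophages of the brain parenchyma, and SMAD2 and SMAD3 carry the TGFβ signal from its receptor to the nucleus. Many inhibitory receptors hold a tyrosine motif in their cytoplasmic tail that, once phosphorylated by SRC family kinases, recruits phosphatases which switch off nearby activating signals. In the brain such receptors read signals from neurons, matrix and neighbouring cells, and several of them are typical of microglia in the healthy tissue.

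Of the 10 genes, 5 were lower in mutants (*Lag3*, *Havcr2*, *Vsir*, *Lair1* and *Sirpa*), 2 were higher (*Lilrb4a* and *Pilra*) and 3 did not pass the test (*Cd47*, *Cd274* and *Cd200r1*). A call was an adjusted p-value under 0.05 in edgeR's quasi-likelihood test over all tested genes. Over all tested genes the same rule called 12.3%, with 4.36% higher and 7.97% lower. Among the 13007 tested genes with an average of at least 2 log2 CPM (counts scaled to a common library total), a range that holds all 10 genes, it called 16.9%. The groups did not overlap in 8 of the 10 genes, against 22.1% of all tested genes. The median log2 fold change was -0.49 over the 10 genes and 0.01 over all tested genes.

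RefSeq promoter windows of 250 bases before the annotated start were at hand for 6 of the 10 genes, on build GRCm38.p6. The 4 printed here belong to genes that moved in either direction, *Havcr2*, *Vsir* and *Lair1* among those that fell and *Pilra* among those that rose. Capitals mark CAGAC, the letters of the SMAD binding element, and GGAAGT, letters of a site of the myeloid factor PU.1, each searched on both strands and written here along the gene's strand.
*Havcr2*, chr11:46454681-46454930, plus strand: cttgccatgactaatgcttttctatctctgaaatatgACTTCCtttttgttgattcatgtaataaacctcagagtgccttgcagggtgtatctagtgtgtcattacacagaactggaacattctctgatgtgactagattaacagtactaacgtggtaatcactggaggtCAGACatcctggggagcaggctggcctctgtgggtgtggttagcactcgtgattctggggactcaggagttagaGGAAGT
*Vsir*, chr10:60346601-60346850, plus strand: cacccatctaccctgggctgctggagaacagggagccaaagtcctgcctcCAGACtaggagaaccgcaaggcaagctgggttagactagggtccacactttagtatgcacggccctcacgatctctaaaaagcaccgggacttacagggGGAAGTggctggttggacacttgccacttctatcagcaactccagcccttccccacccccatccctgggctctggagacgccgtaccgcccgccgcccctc
*Lair1*, chr7:4063205-4063454, minus strand: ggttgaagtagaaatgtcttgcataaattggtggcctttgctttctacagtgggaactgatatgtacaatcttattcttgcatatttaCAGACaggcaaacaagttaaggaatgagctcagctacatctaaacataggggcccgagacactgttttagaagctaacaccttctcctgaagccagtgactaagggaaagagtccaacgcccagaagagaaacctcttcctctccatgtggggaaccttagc
*Pilra*, chr5:137836279-137836528, minus strand: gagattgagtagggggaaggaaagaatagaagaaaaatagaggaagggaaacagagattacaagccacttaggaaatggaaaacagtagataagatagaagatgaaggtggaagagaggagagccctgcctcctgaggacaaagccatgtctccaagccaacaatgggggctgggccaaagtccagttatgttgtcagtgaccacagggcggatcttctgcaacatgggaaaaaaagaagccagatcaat
The CAGAC letters stood once in the windows of *Havcr2*, *Vsir*, *Lair1* and *Cd274* and were not found in those of *Pilra* and *Cd47*. They occur in 42.1% of 27025 mouse promoter windows of the same length. The GGAAGT letters stood at 2 places in the *Havcr2* window and at 1 in that of *Vsir*, against 19.99% of all windows with at least 1. A match describes letters in a window and not a bound site.

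*Smad3*, 1 of the targets, ranged from 39.5 to 56.9 CPM in controls and was 15.1, 9.61, 35.1 and 17.5 CPM in mutant replicates 1 to 4. CPM here are scaled by TMM, which corrects for differences in composition between libraries. *Smad3* was 2.52-fold lower (log2 fold change -1.33 ± 0.36 SE; edgeR adjusted p = 0.0429), and without any 1 of the 4 controls or of mutants 1, 2 and 4 the call was lost (edgeR adjusted p up to 0.110). *Smad2* was at 62.7 to 92.4 CPM in controls against 42.7 to 75.9 CPM in mutants and was not called (log2 fold change -0.34, edgeR adjusted p = 0.340). Whole-gene counts also include reads outside the floxed exons. *Xist* was at 99.5 to 183 CPM in the 4 controls and at most 0.562 CPM in the 4 mutants, and the Y-linked *Ddx3y* was at 9.74 CPM or more in mutants and at most 0.224 CPM in controls, so genotype and sex cannot be told apart. All 10 checkpoint genes are autosomal, and the part of sex in their levels was not tested.

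Markers of 3 cell classes moved with the groups, and in bulk RNA fewer cells of a type and less RNA per cell cannot be told apart. Of 11 microglia markers, 10 were lower in mutants, and their summed level was 35342 to 53910.0 CPM in controls and 5986 to 8475 CPM in mutants. *Cx3cr1*, 1 of the 10 and the locus that drives Cre, was at 5456 to 8628 CPM in controls and 1278 to 1349 CPM in mutants. The part of the Cre allele in its level was not tested. Of 6 BAM markers, 5 were higher, with a summed level of 29.5 to 42.5 CPM in controls and 1599 to 2485 CPM in mutants. The paper reports BAM markers in adult microglia of *Itgb8* mutants. More BAMs and microglia that express these genes cannot be told apart here. Of 10 T and NK cell markers, 3 were higher and 7 were not called, with sums of 15.9 to 66.3 CPM in controls and 113 to 229 CPM in mutants. *Cd4*, which some macrophages also express, was a large part of the mutant sums. It was at 0.867 to 5.75 CPM in controls and 48.5 to 78.1 CPM in mutants. In mutant 4, *Cd4* made up 56.6 of the 113 CPM. None of the 4 monocyte, 4 B cell, 5 dendritic cell, 5 neuron, 5 astrocyte, 5 oligodendrocyte or 4 endothelial markers was called, and 1 of 5 neutrophil markers was lower. Of the 32 genes of the 7 lists without a call, *Clec9a* and *Cldn5* were too low to be tested in edgeR. At an unadjusted p under 0.05 edgeR had 1 of the 32 lower and 0 higher, and DESeq2 also called 1 lower and 0 higher. No marker was at 0 in every library. Control 1 and mutant 1 held the most oligodendrocyte RNA, 4329.9 and 3605 CPM, against 598 to 1961 CPM in the other libraries. The part of these cells in the results on the checkpoint genes was not tested.

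**Figure D1:**
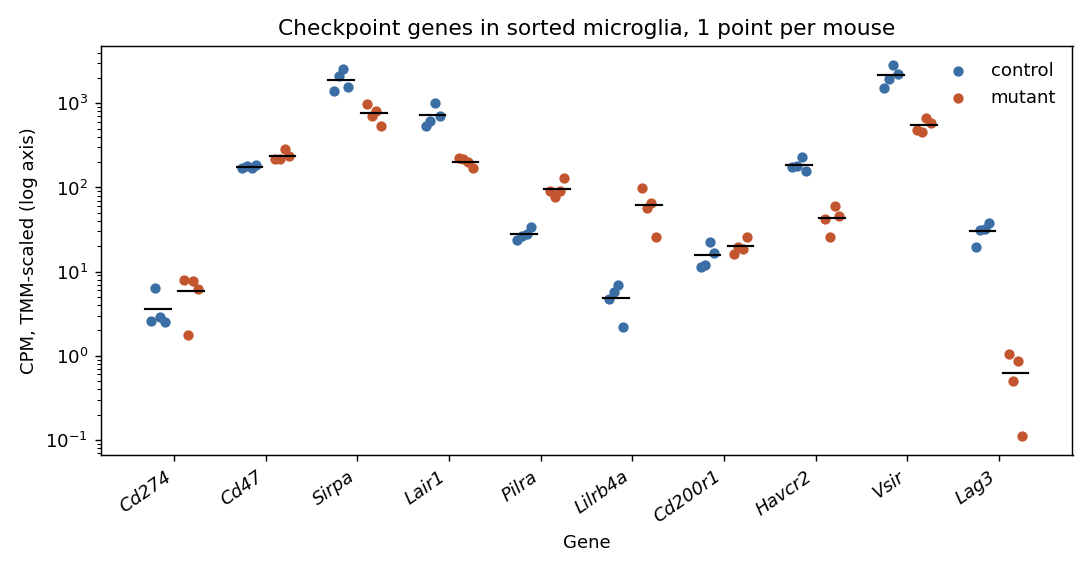
TMM-scaled CPM (log axis) of the 10 checkpoint genes in 4 control and 4 mutant mice, with 1 point per mouse and a bar at each group's mean. The groups are separate for all but *Cd274* and *Cd200r1*; mutant *Lag3* lies at or under 1.06 CPM and mutant *Lilrb4a* at or above 25.9 CPM.

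Among the 2 ligands, *Cd47* encodes the broadly expressed surface protein that engages SIRPα and restrains phagocytosis. *Cd47* (ENSMUSG00000055447; GRCm38 chromosome 16, 49800533 to 49915010, plus strand) was at 171, 179.8, 171 and 183 CPM in control replicates 1 to 4. In mutant replicates 1 to 4 it was at 220.1, 216, 283 and 234 CPM. Every mutant exceeded every control, by a small margin. The difference was 1.35-fold (log2 fold change 0.44 ± 0.14 SE) and missed the threshold (edgeR adjusted p = 0.0702). It passed in DESeq2 (adjusted p = 0.00544) and with library totals in place of TMM (adjusted p = 0.0283), over a range of 0.00544 to 0.156 across the alternatives.

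*Cd274* encodes PD-L1, the ligand of the inhibitory receptor PD-1, and was sparse in these cells. *Cd274* (ENSMUSG00000016496; chromosome 19, 29367455 to 29388095, plus strand) was at 2.59, 6.30, 2.91 and 2.53 CPM in controls 1 to 4 and at 7.999, 1.75, 7.74 and 6.16 CPM in mutants 1 to 4. Of the mutants 3 were above 3 of the controls, while control 2 stood high and mutant 2 was the lowest of all 8 mice. The log2 fold change of 0.72 had an interval from -0.46 to 1.90, so a fall, no change and a rise are all within the error (edgeR adjusted p = 0.408). An antisense gene covers 14.1% of its exonic length, and reads of the 2 strands were counted without strand.

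Of the 4 receptors with inhibitory tyrosine motifs, *Sirpa* and *Lair1* fell while *Pilra* and *Lilrb4a* rose. *Sirpa* encodes SIRPα, the macrophage receptor for CD47. *Sirpa* (ENSMUSG00000037902; chromosome 2, 129592835 to 129632228, plus strand) was at 1385, 2115, 2525 and 1582 CPM in controls 1 to 4 and at 981, 705, 814 and 538 CPM in mutants 1 to 4. All mutants lay under all controls, with mutant 1 the nearest to the control range. *Sirpa* was 2.50-fold lower (log2 fold change -1.32 ± 0.25 SE; edgeR adjusted p = 0.00983). Counted within each mouse, which needs no scaling, reads on *Sirpa* were 8.11 to 14.8 times those on *Cd47* in controls and 2.30 to 4.46 times in mutants.

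*Lair1* encodes a receptor for collagens that is expressed on many leukocytes. *Lair1* (ENSMUSG00000055541; chromosome 7, 4003402 to 4063204, minus strand) was at 542, 624, 1001 and 712 CPM in controls 1 to 4. In mutants 1 to 4 it was at 225, 219, 199.8 and 170.4 CPM. The highest mutant was well under the lowest control, and the mutants were closer to each other than the controls were. The fall was 3.54-fold (log2 fold change -1.82 ± 0.21 SE; edgeR adjusted p = 9.0e-04).

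*Pilra* encodes an inhibitory receptor for sialylated glycoproteins whose close relatives, the *Pilrb* genes, encode activating receptors. *Pilra* (ENSMUSG00000046245; chromosome 5, 137821952 to 137836281, minus strand) was at 23.9, 26.6, 28.3 and 34.2 CPM in controls 1 to 4 and at 89.9, 77.1, 90.8 and 128 CPM in mutants 1 to 4. The lowest mutant was above the highest control. *Pilra* was 3.41-fold higher (log2 fold change 1.77 ± 0.20 SE; edgeR adjusted p = 7.0e-04). Exons of *Zcwpw1* on the other strand cover 15.1% of its exonic length, and 20.8% of its 50-base words also occur in other genes, 4.4% in *Pilrb1*, so part of its count is uncertain.

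*Lilrb4a* encodes gp49B, an inhibitory receptor of the leukocyte immunoglobulin-like family on myeloid cells. *Lilrb4a* (ENSMUSG00000112148; chromosome 10, 51490956 to 51496611, plus strand) was at 4.78, 5.68, 6.94 and 2.18 CPM in controls 1 to 4. In mutants 1 to 4 it was at 99.3, 56.4, 65.0 and 25.9 CPM, with mutant 4 the lowest as control 4 was among controls. No mutant came near the control range. The rise was 12.6-fold (log2 fold change 3.65 ± 0.48 SE; edgeR adjusted p = 0.00148). Its count is uncertain, since 47.2% of its 50-base words also occur in other genes, most of them in *Gm49339* and 26.1% in *Lilr4b*. Exons of *Gm49339* on the same strand and of *Gm40645* on the other cover 35.9% of its exonic length. With the counts of *Lilrb4a* and *Lilr4b* summed the log2 fold change was 3.69 (edgeR adjusted p = 0.00137). That sum leaves out *Gm49339* and *Gm40645*, and their part in the count was not tested. *Pilra*, *Lilrb4a* and the BAM markers were all higher in the mutant group. Within it, mutant 4 had the highest BAM marker sum (2485 CPM), the highest *Pilra* and the lowest *Lilrb4a*. Mutant 1 had the lowest sum (1599 CPM) and the highest *Lilrb4a*. Single BAM markers did not share 1 order. *Pf4*, the largest part of the sum (652 CPM in mutant 1 and 1366 CPM in mutant 4), *Ms4a7* and *Cbr2* were highest in mutant 4. *Mrc1*, *Cd163* and *Lyve1* were highest in mutant 3, and *Cd163* was lowest in mutant 4 (34.6 CPM). The part of BAMs in the rise of *Pilra* or *Lilrb4a* was not tested.

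The 4 remaining receptors use other ways of signalling, and 3 of them fell. *Havcr2* encodes TIM-3, which binds galectin-9, CEACAM1 and phosphatidylserine and is a known microglial surface molecule. *Havcr2* (ENSMUSG00000020399; chromosome 11, 46454935 to 46481255, plus strand) was at 174, 178, 233 and 155 CPM in controls 1 to 4 and at 42.3, 26.1, 59.97 and 45.7 CPM in mutants 1 to 4. The groups were far apart, with mutant 2 the lowest. *Havcr2* was 4.25-fold lower (log2 fold change -2.09 ± 0.26 SE; edgeR adjusted p = 0.00109).

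*Vsir* encodes VISTA, a B7 family protein of myeloid and T cells. *Vsir* (ENSMUSG00000020101; chromosome 10, 60346851 to 60372684, plus strand) was at 1537, 1955, 2892 and 2247 CPM in controls 1 to 4. In mutants 1 to 4 it was at 488, 458, 661 and 588 CPM. The highest mutant was under the lowest control by a wide margin. *Vsir* was 3.93-fold lower (log2 fold change -1.98 ± 0.23 SE; edgeR adjusted p = 8.1e-04).

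*Lag3* encodes a relative of CD4 that binds MHC class II and is known from exhausted T cells and from microglia. *Lag3* (ENSMUSG00000030124; chromosome 6, 124904361 to 124911705, minus strand) was at 19.8, 31.1, 32.0 and 38.3 CPM in controls 1 to 4, from 767 to 1424 reads. In mutants 1 to 4 it was at 1.06, 0.497, 0.863 and 0.110 CPM, from 41, 23, 31 and 4 reads. The gene was close to absent from all mutants, and the number of reads limits the precision of the fold there. *Lag3* was 47.6-fold lower (log2 fold change -5.57, interval -6.90 to -4.25; edgeR adjusted p = 4.9e-04), the largest change of the 10 genes in this fit.

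*Cd200r1* encodes the receptor for CD200, a protein that neurons display. *Cd200r1* (ENSMUSG00000022667; chromosome 16, 44765736 to 44794978, plus strand) was at 11.5, 11.95, 22.7 and 16.8 CPM in controls 1 to 4 and at 16.2, 19.4, 18.4 and 26.1 CPM in mutants 1 to 4. The groups overlapped over most of their range. The log2 fold change of 0.35 had an interval from -0.26 to 0.96 (edgeR adjusted p = 0.439), which leaves out a fall of the size seen in *Sirpa*.

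The 5 genes that fell did so beside the fall of the microglia markers, whose median log2 fold change was -3.32. *Lag3* lay beyond that median, and *Havcr2*, *Vsir*, *Lair1* and *Sirpa* lay nearer to 0. *Csf1r*, the macrophage growth factor receptor and 1 of those markers, changed by a log2 fold change of -1.32 ± 0.25 SE, the value of *Sirpa* to 2 decimals, whereas *Aif1* of the same list was not called (-0.20). Control 3, with the highest summed microglia markers, was also the highest control for *Havcr2*, *Sirpa*, *Vsir* and *Lair1*, and also for *Cd200r1*, which was not called, whereas *Lag3* was highest in control 4. With both libraries numbered 1 left out, which held the most oligodendrocyte RNA, the same 7 genes were called, and *Lag3* was at a log2 fold change of -6.09 and *Lilrb4a* at 3.32.

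**Figure D2:**
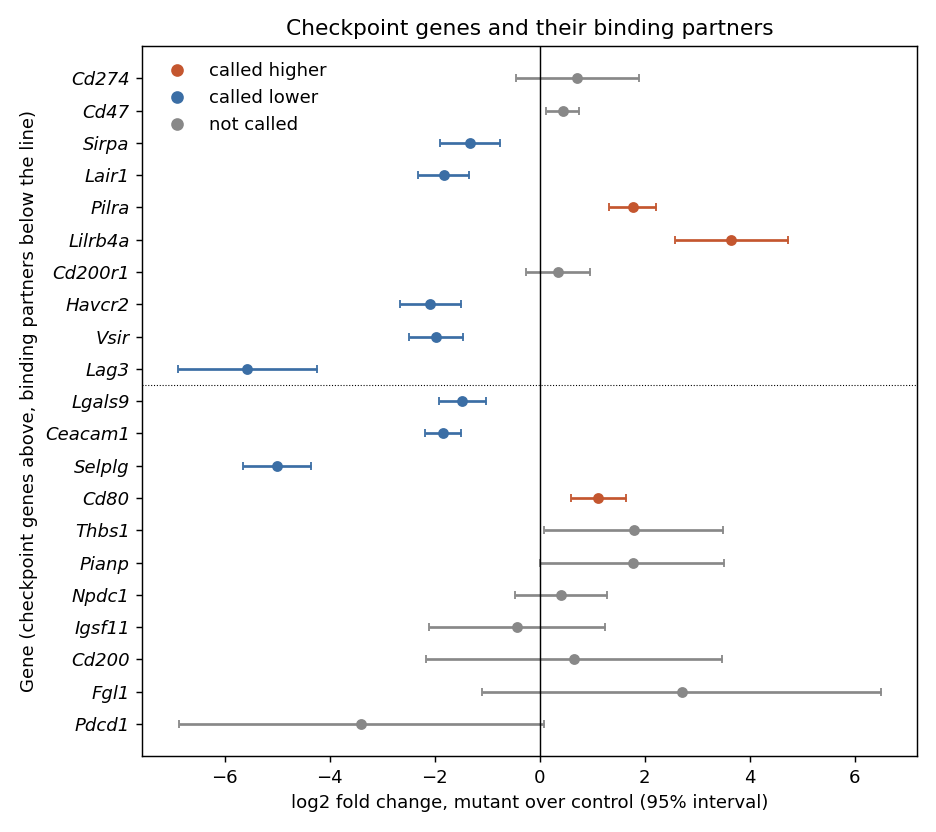
Log2 fold change of mutants over controls with its 95% interval for the 10 checkpoint genes (above the dotted line) and 11 genes of their binding partners (below it), coloured by the edgeR call. *Lag3* at -5.57 and *Selplg* at -5.00 lie farthest to the left, and *Lilrb4a* at 3.65 is the farthest to the right of the called genes.

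Levels of different genes can be compared only per length, so CPM were divided by kb of exon. In controls *Vsir* (430.4 ± 114 CPM per kb, SD, n = 4) and *Sirpa* (387 ± 105) led. They overlapped, with *Vsir* above *Sirpa* in 3 of 4 mice. *Lair1* (96.3 ± 26.8) and *Havcr2* (68.0 ± 12.3) came next and overlapped in range, although *Lair1* was above *Havcr2* in 4 of 4 mice. *Cd47* at 28.1 ± 0.993 CPM per kb was separate from its neighbours on either side. *Lag3* (14.4 ± 3.65) and *Pilra* (9.15 ± 1.41) overlapped, *Cd200r1* (4.69 ± 1.56) stood apart, and *Cd274* (0.989 ± 0.503) and *Lilrb4a* (0.936 ± 0.385) overlapped at the bottom.

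In mutants the order was different. *Sirpa* (155 ± 37.9 CPM per kb) and *Vsir* (109 ± 18.6) still led and overlapped, with *Sirpa* now above *Vsir* in 3 of 4 mice. *Cd47* (38.0 ± 4.91), *Pilra* (31.2 ± 7.11) and *Lair1* (27.2 ± 3.29) followed, each overlapping the next. *Havcr2* (16.0 ± 5.11), *Lilrb4a* (11.8 ± 5.77) and *Cd200r1* (5.98 ± 1.27) formed another run of overlapping neighbours. *Cd274* (1.63 ± 0.798) and *Lag3* (0.301 ± 0.200) were last, with ranges that overlapped but with *Cd274* above *Lag3* in 4 of 4 mice.

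Summed over the 10 genes, the level per length was 1040.1 ± 247 CPM per kb in controls and 396 ± 47.8 in mutants. *Vsir* made up 41.3% ± 3.25 of that sum in controls and 27.7% ± 4.44 in mutants, while *Sirpa* held 37.1% ± 3.82 and 38.8% ± 6.55. *Cd47* went from 2.81% ± 0.631 to 9.63% ± 1.05, *Pilra* from 0.907% ± 0.197 to 8.004% ± 2.35 and *Lilrb4a* from 0.0907% ± 0.0335 to 2.92% ± 1.23 (all SD, n = 4). The summed level was lower in every mutant than in any control. These 3 genes made up more of it, and so did *Cd200r1* (0.447% to 1.55%) and *Cd274* (0.0977% to 0.401%). *Cd47*, *Cd200r1* and *Cd274* were not called. The share of a gene with a steady level also rises when the sum falls.

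**Figure D3:**
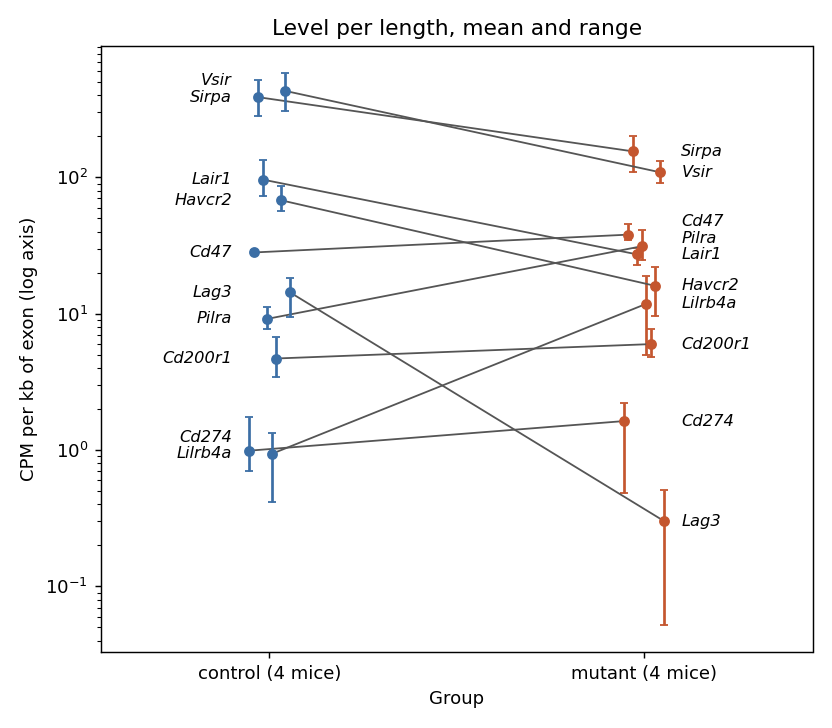
Level per length (CPM per kb of exon, log axis) of the 10 checkpoint genes in controls and mutants, with points at the mean of 4 mice, bars over the range and a line joining each gene. *Lag3* falls from 14.4 to 0.301 and *Lilrb4a* climbs from 0.936 to 11.8, so their lines cross.

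A list of 11 genes encodes ligands or receptors that bind the checkpoint proteins, and 3 of them were lower and 1 higher in mutants. Their median log2 fold change was 0.40, and 12.3% of all tested genes were called. *Selplg* encodes PSGL-1, a ligand of VISTA and of selectins, and is abundant in microglia. *Selplg* was at 5236, 5493, 8883 and 7512 CPM in controls 1 to 4 and at 206, 271, 222 and 147 CPM in mutants 1 to 4. It was 32.0-fold lower (log2 fold change -5.00 ± 0.29 SE; edgeR adjusted p = 3.7e-05), so that both *Vsir* and this ligand of its product fell.

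Both of the listed TIM-3 ligands fell together with *Havcr2*. *Lgals9*, which encodes galectin-9, was at 441 to 703 CPM in controls and 177 to 251 CPM in mutants (log2 fold change -1.48 ± 0.20 SE; edgeR adjusted p = 0.00159). *Ceacam1*, a homophilic adhesion receptor, was at 70.8 to 91.6 CPM in controls and 19.5 to 23.6 CPM in mutants (log2 fold change -1.84 ± 0.15 SE; edgeR adjusted p = 1.2e-04). Reads on *Havcr2* were 0.253 to 0.403 times those on *Lgals9* in controls and 0.128 to 0.258 times in mutants, ranges that overlap.

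*Cd80*, which encodes a costimulatory ligand that also binds PD-L1, was at 13.6, 8.75, 9.96 and 7.15 CPM in controls 1 to 4 and at 19.6, 20.2, 22.6 and 23.2 CPM in mutants 1 to 4. It was 2.16-fold higher without overlap (log2 fold change 1.11 ± 0.23 SE; edgeR adjusted p = 0.0144). *Pdcd1*, which encodes PD-1 itself, was at 0.776 to 7.50 CPM in controls and 0 to 1.06 CPM in mutants and was not called (log2 fold change -3.40, interval -6.88 to 0.08). *Thbs1*, which encodes the CD47 ligand thrombospondin, was at 6.80 to 24.0 CPM in controls against 8.92 to 133 CPM in mutants and was not called (log2 fold change 1.79, edgeR adjusted p = 0.155).

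The other 5 partners were low or overlapped. *Cd200*, the ligand of CD200R1, was at 0 to 5.92 CPM in controls and 1.504 to 5.06 CPM in mutants, the highest value of each group being in the library numbered 1. *Fgl1*, a LAG-3 ligand, was at most at 0.323 CPM in controls and 1.198 CPM in mutants, and *Igsf11*, a VISTA ligand, was between 0.167 and 2.38 CPM over all mice. *Pianp* (0.108 to 1.29 CPM in controls, 0.975 to 3.75 in mutants) and *Npdc1* (13.9 to 45.4 and 23.2 to 54.4), whose products bind PILRα, were not called. All but *Npdc1* were under 6 CPM in every mouse.

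A list of 14 genes acts behind inhibitory receptors, and 6 of them were lower and 1 was higher, with a median log2 fold change of -0.42, beside 7.97% of all tested genes lower and 4.36% higher. *Inpp5d*, which encodes the lipid phosphatase SHIP1, was at 395 to 653 CPM in controls and 111 to 169 CPM in mutants (log2 fold change -1.97 ± 0.24 SE; edgeR adjusted p = 9.7e-04). *Ptpn6*, which encodes the tyrosine phosphatase SHP-1 that binds phosphorylated inhibitory tails, was at 336 to 507 CPM and 186 to 262 CPM (-0.87 ± 0.18; adjusted p = 0.0140). Its relative *Ptpn11*, chosen after its values were seen, was at 33.3 to 55.8 CPM in controls and 54.8 to 71.8 CPM in mutants and was not called (edgeR adjusted p = 0.138).

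The kinases that phosphorylate the tails, and the adaptors around them, moved as follows. *Lyn*, a SRC family kinase of myeloid cells, was at 468 to 711 CPM in controls and 202 to 319.8 CPM in mutants (log2 fold change -1.22 ± 0.20 SE; edgeR adjusted p = 0.00474). *Pag1*, which anchors the inhibitory kinase CSK at the membrane, was at 99.6 to 185 CPM and 36.7 to 50.8 CPM (-1.55 ± 0.23), and *Csk* itself at 89.7 to 138 CPM and 59.3 to 70.8 CPM (-0.80 ± 0.16). *Dok2*, an adaptor that recruits RAS-GAP, was the 1 that rose, from 4.68 to 9.45 CPM in controls to 22.6 to 50.6 CPM in mutants (log2 fold change 2.08 ± 0.35 SE; edgeR adjusted p = 0.00530). The groups did not overlap in 7 of the 14 genes, the called ones, beside 22.1% of all tested genes.

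Among 18 relatives of the checkpoint genes and their adaptors, 14 were tested, 6 were higher and none was lower, with a median log2 fold change of 1.36, beside 4.36% of all tested genes higher. At an unadjusted p under 0.05 none of the 14 was lower in edgeR, and DESeq2 called 7 higher and 0 lower. *Pilrb1* and *Pilrb2*, next to *Pilra* on chromosome 5, rose more than *Pilra* did. *Pilrb1* was at 7.65, 6.98, 2.18 and 3.82 CPM in controls 1 to 4 and at 46.5, 47.4, 58.3 and 71.3 CPM in mutants 1 to 4 (log2 fold change 3.44 ± 0.40 SE; edgeR adjusted p = 8.4e-04). *Pilrb2* was at 2.32 to 6.07 CPM and 30.6 to 52.2 CPM (3.19 ± 0.32; adjusted p = 4.0e-04). Reads on *Pilra* were 1.99 to 6.29 times those on the pair of *Pilrb* genes in controls and 0.926 to 1.11 times in mutants, ranges that do not overlap, and *Pilra* had fewer reads than the pair in mutant 2 alone.

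*Lilr4b*, the neighbour of *Lilrb4a*, was at 10, 23.4, 13.0 and 4.01 CPM in controls 1 to 4 and at 225, 140.3, 178 and 113 CPM in mutants 1 to 4 (log2 fold change 3.70 ± 0.50 SE; edgeR adjusted p = 0.00176). Reads on *Lilrb4a* were 0.242 to 0.544 times those on *Lilr4b* in controls and 0.230 to 0.442 times in mutants, so this pair kept overlapping proportions. *Lilra5*, an activating receptor of the same family, went from 6.11 to 19.1 CPM in controls to 288 to 477 CPM in mutants (4.89 ± 0.41; adjusted p = 1.4e-04).

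*Timd4* encodes TIM-4, a phosphatidylserine receptor of tissue macrophages and a relative of TIM-3. *Timd4* was at 0, 0, 0.420 and 1.13 CPM in controls 1 to 4 and at 39.7, 41.7, 36.9 and 23.4 CPM in mutants 1 to 4, the opposite direction to *Havcr2* on the same chromosome (log2 fold change 6.51 ± 1.07 SE; edgeR adjusted p = 0.00461). *Hcst*, which encodes the activating adaptor DAP10, rose from 9.38 to 18.8 CPM in controls to 32.6 to 59.2 CPM in mutants (1.77 ± 0.27; adjusted p = 0.00304). *Tyrobp* and *Fcer1g*, which encode the adaptors of most activating partners and were chosen after their values were seen, were at log2 fold changes of 0.02 (interval -0.44 to 0.48) and 0.25 (-0.26 to 0.76). *Cd200r2*, *Cd200r3*, *Havcr1* and *Timd2* were too low to be tested.

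**Figure D4:**
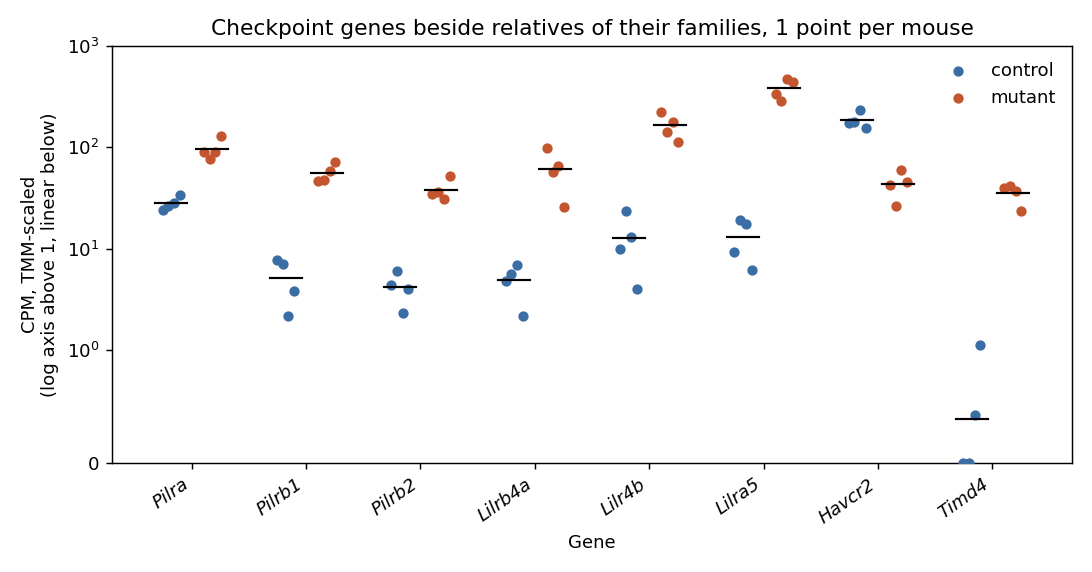
TMM-scaled CPM (log axis above 1, linear below) of *Pilra*, *Lilrb4a* and *Havcr2* beside relatives of their families, with 1 point per mouse and a bar at each group's mean. *Havcr2* is the 1 gene of the 8 in which the mutants lie under the controls, and *Timd4* is at 0 CPM in 2 controls.

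The nearest tested protein-coding gene on either side of each checkpoint gene gave 20 neighbours, of which 5 were higher, 1 was lower and 14 were not called, beside 4.36% higher and 7.97% lower of all tested genes. Some of these neighbours also belong to the lists above. *Lag3* and *Cd4* lie 16140 bases apart and moved in opposite directions, *Cd4* from 0.867 to 5.75 CPM in controls to 48.5 to 78.1 CPM in mutants (log2 fold change 4.61 ± 0.58 SE; edgeR adjusted p = 0.00114). Reads on *Lag3* were 5.41 to 36.9 times those on *Cd4* in controls and at most 0.0143 times in mutants. *Cd4* belongs to the T and NK cell marker list and is also expressed by some macrophages. *Cd3e*, of the same list and particular to T cells, was at 0.867 to 3.09 CPM in controls and 5.36 to 9.41 CPM in mutants. *Plgrkt*, 65 bases from *Cd274*, was not called (log2 fold change -0.13).

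Of 23 further checkpoint genes 21 were tested, and 3 were higher and 2 lower, with a median log2 fold change of 0.38. Of all tested genes 4.36% were higher and 7.97% lower, and the 2 of 21 lower are near the latter share. Those that rose encode 2 inhibitory lectins and a sialic acid receptor. *Clec12a*, a myeloid inhibitory lectin, was at 10.3 to 23.7 CPM in controls and 133 to 163 CPM in mutants (log2 fold change 3.11 ± 0.31 SE; edgeR adjusted p = 3.5e-04). *Cd72*, another inhibitory lectin, was at 10.1 to 16.4 CPM and 121 to 214 CPM (3.56 ± 0.26; adjusted p = 7.8e-05). *Cd22*, an inhibitory sialic acid receptor best known from B cells, was at 1.26 to 8.94 CPM and 23.3 to 54.5 CPM (3.14 ± 0.58; adjusted p = 0.00856), while the 4 B cell markers summed to 48.9 to 67.0 CPM in controls and 40.2 to 68.5 CPM in mutants.

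*Nectin2*, which encodes a ligand of TIGIT, was at 71.8, 79.7, 53.7 and 71.3 CPM in controls 1 to 4 and at 9.40, 7.86, 13.4 and 6.87 CPM in mutants 1 to 4, without overlap (log2 fold change -2.88 ± 0.25 SE; edgeR adjusted p = 1.6e-04). *Cd276*, a B7 family gene, was at 11.7 to 25.6 CPM in controls and 4.00 to 9.87 CPM in mutants and passed narrowly (-1.23 ± 0.34; adjusted p = 0.0462). The other 16 tested genes were not called, and *Pdcd1lg2* and *Vtcn1* were too low to be tested.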

How the data were processed

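Sorted microglia of 4 mutant and 4 control mice aged 60 days were profiled by RNA-seq, 1 library per mouse. The deposited raw counts per gene were made by the authors with Rsubread on mm10 and featureCounts, per the Methods, and are not normalized. The labels name single-end Nextera XT libraries and the Methods paired-end NEBNext libraries, both unstranded. For *Smad2/3* data the Methods point to a different deposit, but genotype and cell type match these libraries. The authors' own DESeq2 comparison, a table of fold changes and p-values, was not used. Libraries held 35639502 to 41946479 counts. The biological coefficient of variation was 0.542, and the spread between mice rather than counting set the precision.

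Genes reaching 10 counts in 4 or more libraries were scaled by TMM and tested with edgeR 4.0.16 (estimateDisp, glmQLFit, glmQLFTest) in R 4.3.3, with Benjamini-Hochberg adjustment over all tested genes. Intervals are 95% intervals of the fitted log2 fold change. Alternatives were DESeq2 1.42.0, RLE size factors, library totals, 2 other filters, a block for the replicate number, and fits without each mouse in turn. Leaving out both libraries numbered 1 and summing near-identical genes were chosen after seeing the data. Annotation was GENCODE M21, which matched 55394 of 55573 genes; lengths are unions of exons or, as an alternative, the longest transcript. *Lilr4b* was matched to the listed symbol *Lilrb4b* through RefSeq names. The tests were also run on counts simulated from the fitted model, which cannot show whether that model holds for these data. Tables and plots were made in Python 3.11.15 with pandas 2.3.3, numpy 2.4.6 and matplotlib 3.10.9.

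The 10 genes and the gene lists were chosen with earlier results of these data known. Named were the 10 genes, *Smad2*, *Smad3*, *Xist*, *Ddx3y*, all binding partners and the called genes of the other lists, up to 6 per list by smallest p. *Ptpn11*, *Tyrobp*, *Fcer1g*, *Csf1r*, *Aif1*, *Cx3cr1*, *Cd4*, *Cd3e*, *Plgrkt*, the BAM markers named singly, the untested genes and the ratios of reads were added after their values were seen.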

Additional observations from a re-analysis of the deposited data

Results flagged for a closer look

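*Cd274* in control replicate 2 stood apart from the other controls. It was at 6.30 CPM against 2.53, 2.59 and 2.91 CPM, a gap of 0.899 of the group's range and more than Dixon's critical value for 4 samples allows. It was the 1 group flagged among 24 groups of 4 values examined (10 checkpoint genes, *Smad2* and *Smad3*, in 2 groups each), and chance flags about 1 in 20 such groups.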

How the results depend on the processing

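The calls of the 7 checkpoint genes kept their direction and their side of the threshold in every alternative in which they were tested. *Lag3* was not tested where 10 counts were required in all 8 libraries, which left 4 genes lower. The number called higher was 3 with DESeq2 and with library totals, through *Cd47*. Library totals moved the median log2 fold change of all tested genes to 0.130; relative to that median *Cd47* was at 0.42, *Sirpa* at -1.32 and *Pilra* at 1.75. Over all genes DESeq2 called 4751 against 2485 (2089 higher and 2662 lower), and leaving out 1 mouse gave 1567 to 2499 calls, with 1572 without control replicate 2 and 1567 without control replicate 3; the cause was not tested. The *Smad3* call was lost without a filter on low counts, where 33547 genes were tested (log2 fold change -1.35), and with both libraries numbered 1 left out (-1.32). As single mice were left out its log2 fold change ranged from -1.79 to -1.11, and 7 of the 8 such fits lost the call.

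The labels do not say what the replicate numbers share. Same-numbered deviations correlated by 0.166, 0.0183, 0.144 and 0.114 for numbers 1 to 4; numbers 1, 3 and 4 correlated best with their own number and number 2 did not, so a pairing was not assumed. With the replicate block 2383 genes were called, and 2 checkpoint genes were higher and 5 lower. Over the longest transcript instead of all exons, *Cd47* was at 33.6 CPM per kb in controls and 45.4 in mutants and *Pilra* at 11.0 in controls, moves larger than 1 SD that follow from the shorter length. By that length *Sirpa* and *Vsir* in controls, *Cd274* and *Lilrb4a* in controls, and *Havcr2* and *Lilrb4a* in mutants changed places, pairs whose ranges overlap. Depth limits *Lag3* in mutants (4 to 41 reads). *Cd274* had 81 to 308 reads per library and is limited by the spread between mice. Its SD was 1.82 CPM at a mean of 3.58 CPM in controls and 2.89 CPM at 5.91 CPM in mutants.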
